A study of Mus musculus with 12 samples.

Results

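Aminoacyl-tRNA synthetases are the enzymes that join each amino acid to its transfer RNA (tRNA), and 36 of their genes were followed here among the 15651 genes of a TPM table (an abundance scaled to transcript length and to the total of the library). The members were chosen by gene symbol from a written list. Of these, 20 encode cytosolic enzymes and 16, whose symbols end in 2, encode mitochondrial enzymes. Every member has 1 row in the table, matched by its Ensembl identifier, and all 36 passed the filter on low values (a group mean of 1 TPM or more) in every comparison, so none was left out.

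Each synthetase recognizes its amino acid and a matching set of tRNAs, and the ribosome then reads the charged tRNA against the codon. Cytosolic synthetases supply the translation of nuclear-encoded messages, and several of them are held together with scaffold proteins in the multisynthetase complex. Mitochondrial synthetases are imported proteins that charge mitochondrial tRNAs, which serve the small set of respiratory chain subunits encoded in mitochondrial DNA. Gars and Kars each encode both the cytosolic and the mitochondrial enzyme, and mitochondria obtain glutaminyl-tRNA by amidation of glutamyl-tRNA.

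The RNA came from c-Kit-enriched splenocytes of moribund mice with acute myeloid leukemia (AML). D/F AML carries Dnmt3afl/fl, Flt3ITD/ITD and Mx1Cre, T/F AML carries Tet2fl/fl, Flt3ITD/ITD and Mx1Cre, and all groups therefore share the Flt3 internal tandem duplication. The interferon-inducible Mx1 promoter drives Cre, and no pIpC inducer was given, so that leaky Cre activity may have deleted 1 or both floxed alleles. Cells of 3 mice per genotype were cultured with SCF, IL6 and IL3, and each mouse gave a library after 6 hours of DMSO and a library after 6 hours of CCS1477, an inhibitor of the p300/CBP bromodomain, making 12 libraries in 4 groups of 3. D/F cells received 4 μM and T/F cells 2 μM, so genotype and dose cannot be told apart. Ages were not given in the sources used here.

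The c-Kit+ label was checked on Kit itself, at 22.8 to 149 TPM, and on 10 myeloid progenitor and blast markers, all in the table, whose summed level was 4297 to 10639 TPM in D/F and 4672 to 6898 TPM in T/F cells with DMSO. It was 975 to 4466 TPM and 1917 to 3257 TPM with CCS1477. Mature neutrophil markers (7 of 7 listed) summed to between 1667 and 9406 TPM over the 12 libraries. Monocyte and macrophage markers (5 of 5) were lower with CCS1477 in every mouse, at 446 to 1248 TPM with DMSO and 169 to 587 TPM with CCS1477 in D/F and at 354 to 536 TPM and 188 to 293 TPM in T/F. Megakaryocyte markers (4 of 4) were likewise lower in every mouse, at 34.9 to 212 TPM and 20.1 to 65.4 TPM in D/F and at 49.4 to 56.6 TPM and 32.7 to 35.2 TPM in T/F, and so was the 1 of 5 mast cell markers analysed here (5.82 to 105 TPM). Of the T cell and NK cell lists, 3 of 6 and 1 of 3 markers were analysed here, without the defining genes Cd3e and Ncr1, and they summed to at most 123 and 8.54 TPM. The T cell sum was lower with CCS1477 in every mouse, at 75.1 to 95 TPM and 26.4 to 51 TPM in D/F and 34.4 to 123 TPM and 27.6 to 81.3 TPM in T/F. Sums of 7 erythroid markers (at most 32.1 TPM) and of 2 B cell markers (at most 23.2 TPM) were lower in every mouse as well. The part of these marker shifts in the synthetase results was not tested. In these bulk samples fewer cells of a type and less RNA per cell cannot be told apart. Dnmt3a was 29.3 to 55.7 TPM in D/F and 39.9 to 57.2 TPM in T/F libraries, and a gene-level TPM that does not single out the floxed exons does not check the deletion. Tet2 was 32.5 to 43.4 TPM in D/F and 24.6 to 35.8 TPM in T/F libraries.

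In cells treated with DMSO, the cytosolic genes stood above the mitochondrial genes. The mean of the 6 DMSO libraries ran from 70.3 TPM for Cars to 183 TPM for Vars among the cytosolic members, with a median of 115 TPM over the 20. Among the mitochondrial members it ran from 9.05 TPM for Pars2 to 59.7 TPM for Rars2, with a median of 24.6 TPM over the 16. The median over all genes of the table was 17.6 TPM, which all 20 cytosolic and 10 of the 16 mitochondrial members exceeded. TPM is scaled per transcript length, so these levels can be set beside each other. Of 17 pairs that charge the same amino acid, each had the higher level in the cytosolic gene, from 1.52-fold for Lars and Lars2 and for Tars and Tars2 to 14.3-fold for Eprs and Pars2.

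Summed over the 20 cytosolic members, the D/F libraries of replicates 1, 2 and 3 held 2520, 1775 and 2570 TPM with DMSO and 1853, 1323 and 2110 TPM with CCS1477. The T/F libraries held 2523, 2370 and 2444 TPM with DMSO and 1958, 1906 and 1944 TPM with CCS1477. Each mouse was lower with CCS1477, the T/F groups did not overlap, and the D/F groups overlapped because replicate 2 was low in both treatments. Summed over the 16 mitochondrial members, the D/F libraries held 413, 475 and 444 TPM with DMSO and 371, 431 and 404 TPM with CCS1477. T/F mice held 458, 443 and 482 TPM with DMSO and 469, 458 and 429 TPM with CCS1477. The mitochondrial sum was lower in 3 of 3 D/F mice, but its groups overlapped in both genotypes, and in T/F it was lower in replicate 3 only.

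**Figure D1:**
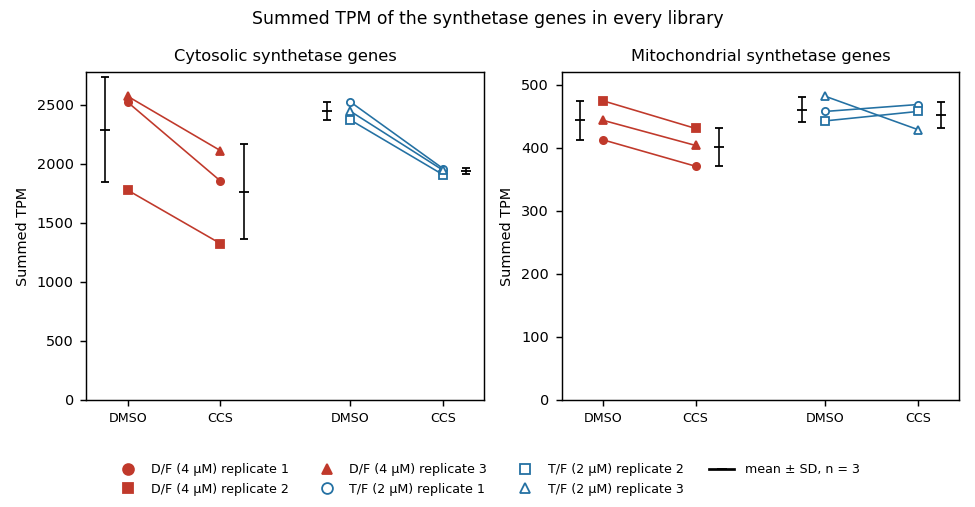
Summed TPM of the 20 cytosolic (left) and the 16 mitochondrial (right) synthetase genes in every library, with a line joining the DMSO and CCS1477 libraries of a mouse and black bars for the mean ± SD of 3 mice. The cytosolic sum falls along all 6 lines, from 2446 to 1936 TPM on average in T/F, and both D/F replicate 2 libraries lie below the other D/F mice given the same treatment.

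Differences are given on the log2(TPM + 1) scale as CCS1477 minus DMSO, from limma with p-values adjusted over all genes tested, and calls rest on an adjusted p below 0.05 whatever the size of the change. In T/F AML, 14 of the 20 cytosolic genes fell, 1 rose (Cars) and 5 were not called, against 17.6% of all genes called lower and 25.8% called higher. Among the 16 mitochondrial genes, 5 fell, 2 rose and 9 were not called. The median log2 fold change was -0.43 for the cytosolic and -0.03 for the mitochondrial members, against 0.07 for all genes tested. The CCS1477 libraries lay below all DMSO libraries for 16 of the 20 cytosolic and 6 of the 16 mitochondrial genes, where 22.6% of all genes did so. They lay above for 1 cytosolic (Cars) and 3 mitochondrial genes, against 33.5% of all genes. The mouse block gave the same member calls, against 22.9% and 31.2% of all genes. Without replicate 1 the count of T/F calls was 8 cytosolic and 3 mitochondrial, and without replicate 2 it was 9 and 4. Calls over all genes also dropped in these fits, from 6620 of 15256 to 3473 of 15254 and 3192 of 15253. Dars, Eprs, Farsa, Farsb, Iars, Kars, Rars, Ears2 and Yars2 were called whichever T/F mouse was left out.

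In D/F AML the direction was alike and fewer genes passed. The median log2 fold change was -0.50 for the cytosolic and 0.01 for the mitochondrial members, against 0.06 for all genes. Of the cytosolic genes 18 of 20 had a fold change below 0, but only Farsa was called, and of the mitochondrial genes Ears2 and Yars2 were called, all lower, against 6.51% of all genes called lower and 5.14% called higher. With the mouse as a block, which compares the libraries of the same animal, 11 cytosolic genes fell and Cars rose, and 4 mitochondrial genes fell and Wars2 rose, against 18% of all genes lower and 21.4% higher. The groups did not overlap, with CCS1477 lower, for 6 cytosolic and 4 mitochondrial genes, against 16.7% of all genes, and with CCS1477 higher for 0 cytosolic and 2 mitochondrial genes (Iars2 and Wars2), against 19.9%. The 6 and 4 lower ones also did not overlap in T/F, and 13.2% of all genes were lower without overlap in each genotype.

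With both genotypes in 1 fit that has a term for genotype, 11 cytosolic genes fell and Cars rose, while 5 mitochondrial genes fell and Wars2 rose, against 19.6% of all genes lower and 25.8% higher. With the mouse as a block 16 cytosolic genes fell, against 25.9% of all genes, and Aars, Sars and Vars were the cytosolic members that were not called. The mitochondrial calls were the same 6 genes in both fits. Leaving out any 1 of the 6 mice kept the calls of Dars, Eprs, Farsa, Farsb, Iars, Rars and Wars and of all 6 mitochondrial genes. In each of the 6 mice separately, the median difference of the cytosolic members was below that of the mitochondrial members, by 0.37 to 0.49 in D/F and by 0.25 to 0.42 in T/F. Of the cytosolic genes 16 were lower in 6 of 6 mice and 2 (Cars and Sars) were higher in 6 of 6. Of the mitochondrial genes 5 were lower and 2 (Wars2 and Iars2) were higher in 6 of 6, while 24.2% of all genes were lower and 31.8% higher in every mouse. A change past 2-fold was called lower for 4.61% and higher for 2.67% of all genes in D/F, for 4.7% and 2.63% in T/F, and for 5.7% and 3.1% over both genotypes. Farsa was the 1 cytosolic member past it in each of these fits, and the mitochondrial members past it were Ears2 in D/F, Ears2, Yars2 and Lars2 (higher) in T/F, and Ears2 and Yars2 over both genotypes. These members are not replicates of a condition, and the class medians carry no test.

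**Figure D2:**
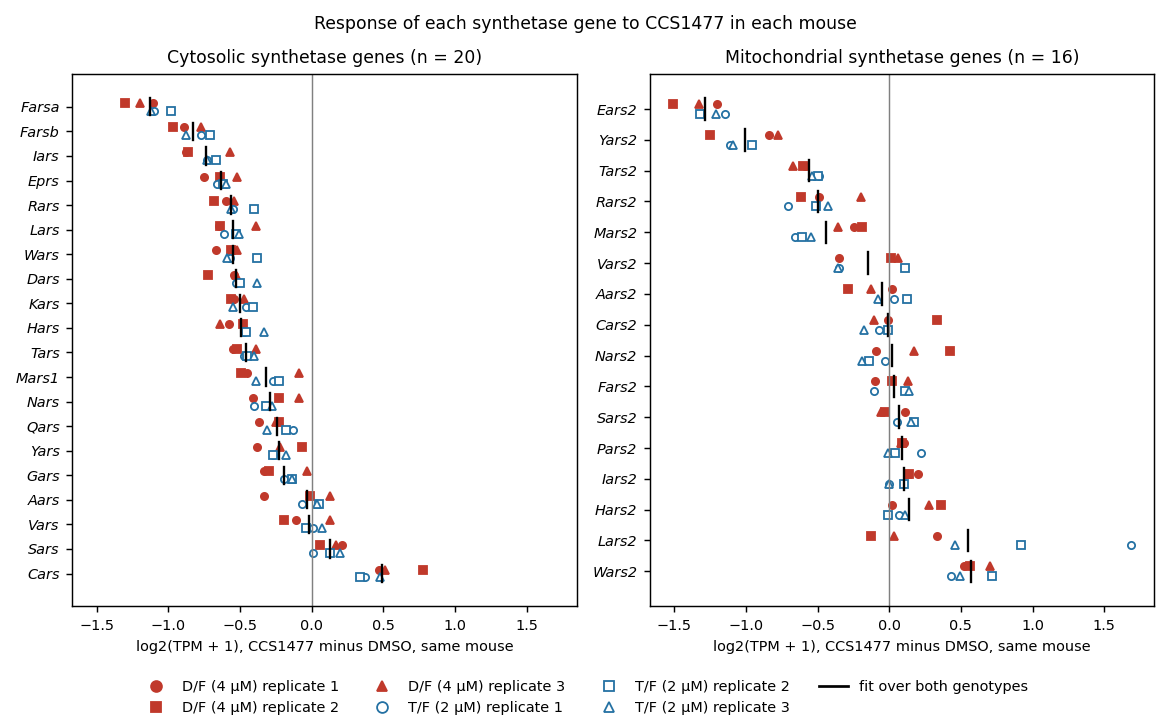
Difference in log2(TPM + 1) between the CCS1477 and the DMSO library of each mouse (points) for the 20 cytosolic (left) and 16 mitochondrial (right) genes, ordered by the fit over both genotypes (black bars). Farsa and Ears2 lie farthest below 0 in their classes with all 6 mice on that side, Cars lies above 0 in all 6, and Lars2 has the widest scatter, with T/F replicate 1 above 1.5.

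Stretches of the promoters of 5 cytosolic genes are shown because they hold letters that MYC or ATF4 family proteins are known to bind, and because these genes include members that fell (Farsb and Iars) and members that were not called over both genotypes (Aars, Gars and Tars). They come from the RefSeq windows of GRCm38.p6 that reach from 250 bases before to 50 bases after each gene's start, written in the direction of transcription, and only bases before the RefSeq start are printed. That start can differ from the GENCODE gene start used for positions elsewhere, and the Iars, Tars and Aars stretches reach or lie past the latter. A window was found for 13 cytosolic and 14 mitochondrial genes. Capitals mark 1 motif in each stretch, either CACGTG (the E-box, which reads the same on both strands) or the reverse strand of TGATGNAA (the core of the amino acid response element), searched on both strands, with no overlap between the motifs. The Aars stretch also holds cacgtg, left in lower case.
Farsb (chr1:78488898-78488976, reverse strand): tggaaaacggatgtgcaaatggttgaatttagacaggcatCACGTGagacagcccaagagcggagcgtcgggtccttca
Iars (chr13:49682021-49682106, forward strand): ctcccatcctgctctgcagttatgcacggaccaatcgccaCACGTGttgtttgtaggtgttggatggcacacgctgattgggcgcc
Aars (chr8:111033690-111033777, forward strand): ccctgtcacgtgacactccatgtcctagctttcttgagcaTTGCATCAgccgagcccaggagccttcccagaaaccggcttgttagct
Gars (chr6:55037931-55038000, forward strand): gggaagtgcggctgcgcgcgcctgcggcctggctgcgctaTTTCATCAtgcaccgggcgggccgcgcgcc
Tars (chr15:11399659-11399713, reverse strand): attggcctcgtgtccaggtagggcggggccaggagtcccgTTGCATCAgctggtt

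CACGTG was found in the whole window of 4 of the 13 cytosolic genes (Aars, Farsb, Iars and Tars) and in 1 of the 14 mitochondrial genes (Ears2), and in 8.09% of the 27025 genes with a window. TGATGNAA was found in 5 cytosolic genes (Aars, Gars, Iars, Tars and Yars) and in 0 mitochondrial genes, and in 4.51% of all. Over both genotypes the median log2 fold change was -0.60 for the 4 cytosolic genes with CACGTG (-0.83 to -0.03). It was -0.23 for the 5 with TGATGNAA (-0.74 to -0.03) and -0.48 for all 20 cytosolic members. The 2 sets share Aars, Iars and Tars, and cytosolic genes without a window stand in neither. Their medians were not tested against each other. A match is a description of these letters and was not tested as a binding site.

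The largest falls among the cytosolic genes were in the subunits of the phenylalanyl-tRNA synthetase. Farsa, the alpha subunit (ENSMUSG00000003808, GRCm38 chromosome 8 from 84856989 to 84869257), was at 139, 135 and 159 TPM in D/F with DMSO and at 64, 54.3 and 69 TPM with CCS1477. The T/F libraries were at 133, 122 and 142 TPM with DMSO and at 61.5, 61.6 and 64.6 TPM. No treated library came near a DMSO library in either genotype, and CCS1477 left 43.2% of the mean DMSO level in D/F and 47.3% in T/F. Limma gave a log2 fold change of -1.20 for D/F (standard error 0.16, adjusted p = 0.0109) and of -1.07 for T/F (standard error 0.08, adjusted p = 0.000504).

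Farsb, the beta subunit (ENSMUSG00000026245, chromosome 1 from 78417975 to 78488897), was at 89, 66.3 and 98.1 TPM in D/F with DMSO and at 47.5, 33.4 and 57.3 TPM with CCS1477. T/F cells had 103, 95.5 and 99.8 TPM with DMSO and 59.6, 58.1 and 53.6 TPM with CCS1477. Treated and DMSO libraries were apart in each genotype, although replicate 2 was the lowest D/F mouse in both treatments. On the log2 scale its change came to -0.88 for D/F (adjusted p = 0.0738, and 0.00747 with the mouse as a block) and to -0.79 for T/F (adjusted p = 0.000828). A Farsb transcript shares 250 bases with Sgpp2 on the opposite strand, and whether the quantification used strand is not given in the sources used here.

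The cytosolic synthetases of the multisynthetase complex were counted separately. Of its 8 members (Dars, Eprs, Iars, Kars, Lars, Mars1, Qars and Rars), 7 fell in T/F, where 17.6% of all genes did, and Qars had an adjusted p of 0.103. All 8 were lower in all 6 mice, as 24.2% of all genes were, with a median log2 fold change of -0.54 over both genotypes. None of the 8 was called in D/F, against 6.51% of all genes lower, and 6 were called there with the mouse as a block, against 18%. Of the 12 cytosolic genes outside the complex 8 were lower in all 6 mice, 7 fell in T/F and 1 rose, and the median over both genotypes was -0.26. The difference between these subsets was not tested.

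Iars, the isoleucyl-tRNA synthetase (ENSMUSG00000037851, chromosome 13 from 49682100 to 49734267), was at 143, 97.9 and 151 TPM in D/F with DMSO and at 77.8, 53.3 and 101 TPM with CCS1477. Its T/F values were 159, 132 and 150 TPM with DMSO and 95.3, 82.8 and 90.2 TPM with CCS1477. The T/F groups were apart, while in D/F the treated replicate 3 lay above the DMSO replicate 2. Fitted by limma, the log2 change came to -0.77 for D/F (adjusted p = 0.133, and 0.0117 with the mouse as a block) and to -0.71 for T/F (adjusted p = 0.00263). A processed pseudogene, Gm4849, matches 1656 bases of Iars at 96% identity and has no row in the table, so that the level of Iars is uncertain.

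Eprs, whose product charges both glutamate and proline (ENSMUSG00000026615, chromosome 1 from 185363044 to 185428360), was at 144, 89.7 and 148 TPM in D/F with DMSO and at 85.3, 57.1 and 103 TPM with CCS1477. Among T/F mice the levels were 139, 123 and 128 TPM and then 88, 80.1 and 84.6 TPM. CCS1477 left 64.2% and 64.6% of the DMSO mean, and the D/F groups overlapped through replicate 2. Limma gave a log2 fold change of -0.64 for D/F (adjusted p = 0.205, and 0.0129 with the mouse as a block) and of -0.62 for T/F (adjusted p = 0.00194).

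Rars, the arginyl-tRNA synthetase (ENSMUSG00000018848, chromosome 11 from 35808381 to 35834506), was at 104, 87 and 110 TPM in D/F with DMSO and at 68.3, 53.7 and 75.5 TPM with CCS1477. The T/F libraries were at 103, 96.1 and 96.7 TPM with DMSO and at 69.8, 72.6 and 65.5 TPM. Here the groups were apart in both genotypes. On the log2 scale its change came to -0.61 for D/F (adjusted p = 0.0856, and 0.012 with the mouse as a block) and to -0.50 for T/F (adjusted p = 0.00273).

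Of the other cytosolic genes, Lars, Wars, Dars, Kars, Hars and Tars, the enzymes for leucine, tryptophan, aspartate, lysine, histidine and threonine, had log2 fold changes of -0.55, -0.55, -0.53, -0.50, -0.49 and -0.46 over both genotypes. All 6 fell in T/F, and all but Tars (adjusted p = 0.0709, and 0.000146 with the block) were called over both genotypes. In D/F the 6 were not called in the reported fit. With the mouse as a block all fell there (limma, adjusted p = 0.0132 for Wars to 0.0202 for Tars). Nars, Mars1 and Yars, for asparagine, methionine and tyrosine, fell in T/F with log2 fold changes of -0.33, -0.30 and -0.24, and over both genotypes they were not called unless the mouse was a block or D/F replicate 2 was left out. In the fit that shares 1 spread over the 4 groups, Eprs, Lars, Kars, Hars, Tars, Nars, Mars1 and Yars lost their T/F call (adjusted p = 0.0723 for Eprs to 0.481 for Nars), and after quantile normalization Nars and Yars did (0.054 and 0.0868). Qars, for glutamine, was at -0.24 over both genotypes (adjusted p = 0.0132) and was not called in either genotype alone, nor over both after quantile normalization (adjusted p = 0.0628). Gars, for glycine, was at -0.22 in D/F and -0.16 in T/F and was not called in either. It was called with the mouse as a block over both genotypes (adjusted p = 0.021), in T/F with an eBayes trend (0.0442) and over both genotypes without D/F replicate 2 (0.0458). Hars lies head to head with Hars2 on chromosome 18, and transcripts of these neighbours share 195 bases on opposite strands. On the same strand, transcripts of Kars, Tars and Qars share 179, 151 and 131 bases with Nfatc3, G3bp2 and Tango2. The part of shared reads in these levels was not tested.

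Not all cytosolic genes followed the class. Vars, the valyl-tRNA synthetase (ENSMUSG00000007029, chromosome 17 from 35000987 to 35016322) and the highest member in DMSO, was at 178, 195 and 171 TPM in D/F with DMSO and at 165, 171 and 187 TPM with CCS1477. T/F cells had 178, 188 and 187 TPM with DMSO and 179, 183 and 197 TPM with CCS1477. The treatments overlapped in both genotypes, with log2 fold changes of -0.05 (standard error 0.14) and 0.01 (standard error 0.07). Aars, for alanine, likewise had log2 fold changes of -0.07 (standard error 0.40) and 0.01 (standard error 0.06). An Aars transcript shares 1326 of its 5750 bases, on the same strand, with Exosc6, for which no value was used here, so that the level of Aars is uncertain.

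Cars, the cysteinyl-tRNA synthetase (ENSMUSG00000010755, chromosome 7 from 143557230 to 143600090) and the lowest cytosolic member in DMSO, moved the other way. It was at 80.6, 39.9 and 76.1 TPM in D/F with DMSO and at 112, 69.2 and 109 TPM with CCS1477. Its T/F values were 79.1, 73.5 and 72.3 TPM with DMSO and 102, 93.1 and 101 TPM with CCS1477. Every mouse was higher with CCS1477, and the T/F groups were apart. The fitted log2 difference of Cars was 0.59 for D/F (adjusted p = 0.287, and 0.0196 with the mouse as a block), 0.39 in T/F (adjusted p = 0.00714) and 0.49 over both genotypes (adjusted p = 0.0399). The T/F call was lost in the fit that shares 1 spread over the 4 groups (adjusted p = 0.303) and when any 1 T/F mouse was left out, and the call over both genotypes was lost when any mouse but D/F replicate 2 was left out.

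Sars, the seryl-tRNA synthetase (ENSMUSG00000068739, chromosome 3 from 108424865 to 108445209), was at 94.7, 71.5 and 91.8 TPM in D/F with DMSO and at 110, 74.5 and 103 TPM with CCS1477. Among T/F mice the levels were 102, 91.3 and 88.2 TPM and then 102, 99.6 and 101 TPM. It was above its DMSO library in all 6 mice by small amounts, the groups overlapped, and it was not called (adjusted p = 0.356 over both genotypes).

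**Figure D3:**
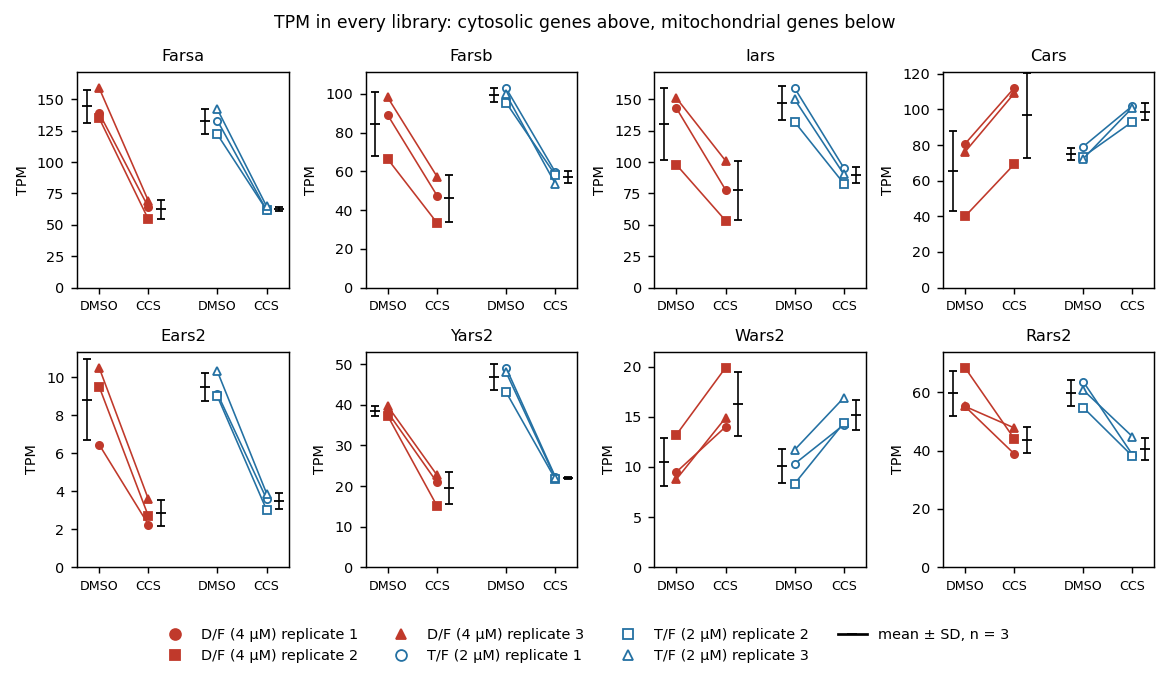
TPM in every library for 4 cytosolic genes (Farsa, Farsb, Iars, Cars, above) and 4 mitochondrial genes (Ears2, Yars2, Wars2, Rars2, below), with a line for each mouse, filled points for D/F at 4 μM, open points for T/F at 2 μM and black bars for the mean ± SD of 3 mice. Farsa drops from between 122 and 159 TPM to between 54.3 and 69 TPM, Ears2 from between 6.45 and 10.5 TPM to between 2.24 and 3.87 TPM, and Cars and Wars2 rise along every line.

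Among the mitochondrial genes, Ears2 and Yars2 fell in both genotypes, Tars2, Rars2 and Mars2 fell in T/F, and Wars2 and Lars2 rose in T/F. Ears2, the mitochondrial glutamyl-tRNA synthetase (ENSMUSG00000030871, chromosome 7 from 122037213 to 122067263), was at 6.45, 9.5 and 10.5 TPM in D/F with DMSO and at 2.24, 2.68 and 3.57 TPM with CCS1477. The T/F libraries were at 9.13, 8.99 and 10.3 TPM with DMSO and at 3.58, 3 and 3.87 TPM. The groups were far apart in both genotypes, and 32.1% and 36.8% of the DMSO mean remained. The 1 TPM added before taking logs makes the fold change of a gene at this level smaller. Fitted by limma, the log2 change came to -1.35 for D/F (standard error 0.23, adjusted p = 0.0197) and to -1.23 for T/F (standard error 0.10, adjusted p = 0.000661).

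Yars2, the mitochondrial tyrosyl-tRNA synthetase (ENSMUSG00000022792, chromosome 16 from 16302965 to 16309640), was at 38.2, 37.3 and 39.7 TPM in D/F with DMSO and at 20.9, 15.1 and 22.7 TPM with CCS1477. T/F cells had 49.2, 43.2 and 48.1 TPM with DMSO and 22.3, 21.7 and 22 TPM with CCS1477. About as much remained in both genotypes, at 50.9% and 47% of the DMSO mean, and no libraries overlapped. Limma gave a log2 fold change of -0.96 for D/F (standard error 0.19, adjusted p = 0.0279) and of -1.05 for T/F (standard error 0.07, adjusted p = 0.000463).

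Tars2, for threonine (ENSMUSG00000028107, chromosome 3 from 95739976 to 95760206), was at 45.2, 49.9 and 57.4 TPM in D/F with DMSO and at 29.7, 32.7 and 35.7 TPM with CCS1477. Its T/F values were 49.8, 47.7 and 55.6 TPM with DMSO and 35.3, 33.4 and 38.1 TPM with CCS1477. Here too the treatments did not overlap within a genotype. On the log2 scale its change came to -0.62 for D/F (adjusted p = 0.0563, 0.0111 with the mouse as a block, and between 0.00343 and 0.0493 with a 5 TPM filter, a shared spread, rescaling, quantile normalization or an eBayes trend) and to -0.51 for T/F (adjusted p = 0.00588). A Tars2 transcript of 3614 bases shares stretches on the same strand with Rmnd1 (142 bases at 94.4% identity) and Ftsj3 (118 bases at 95.8%). The TPM of both was also lower with CCS1477 in every mouse. Another such stretch, of 125 bases at 94.4%, matches Gm22174, which has no row in the table. The level of Tars2 is therefore uncertain, and the part of shared reads in it was not tested.

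Rars2, for arginine (ENSMUSG00000028292, chromosome 4 from 34614957 to 34660167) and the highest mitochondrial member in DMSO, was at 55.2, 68.5 and 55.2 TPM in D/F with DMSO and at 38.9, 44.1 and 47.8 TPM with CCS1477. Among T/F mice the levels were 63.7, 54.8 and 60.8 TPM and then 38.6, 38.1 and 44.8 TPM. It too was apart in both genotypes, with a log2 fold change of -0.44 in D/F (adjusted p = 0.134, and 0.0481 with the mouse as a block) and -0.55 in T/F (adjusted p = 0.00616).

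Mars2, for methionine (ENSMUSG00000046994, chromosome 1 from 55237177 to 55248470), was at 16.5, 19.4 and 21 TPM in D/F with DMSO and at 13.7, 16.9 and 16.1 TPM with CCS1477. The T/F libraries were at 22.3, 18.1 and 18.6 TPM with DMSO and at 13.8, 11.5 and 12.4 TPM. Treated libraries were apart from DMSO in T/F only, although every mouse was lower. Fitted by limma, the log2 change came to -0.26 for D/F (adjusted p = 0.33) and to -0.61 for T/F (adjusted p = 0.00689), and the difference of -0.34 between the genotypes was not called in limma (unadjusted p = 0.0958, adjusted p = 1).

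Wars2, the mitochondrial tryptophanyl-tRNA synthetase (ENSMUSG00000004233, chromosome 3 from 99141068 to 99239186), was the mitochondrial gene that rose over both genotypes. It was at 9.48, 13.2 and 8.76 TPM in D/F with DMSO and at 14, 19.9 and 14.9 TPM with CCS1477. T/F cells had 10.3, 8.32 and 11.7 TPM with DMSO and 14.2, 14.4 and 16.9 TPM with CCS1477. CCS1477 libraries were above all DMSO libraries in both genotypes. Limma gave a log2 fold change of 0.59 for D/F (adjusted p = 0.125, and 0.0139 with the mouse as a block) and of 0.55 for T/F (adjusted p = 0.0211). The T/F call was lost when replicate 1 or replicate 2 was left out and in the fit that shares 1 spread over the 4 groups (adjusted p = 0.0525).

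Lars2, the mitochondrial leucyl-tRNA synthetase (ENSMUSG00000035202, chromosome 9 from 123366927 to 123462666), was called in T/F but not in D/F. It was at 42, 48.3 and 47.3 TPM in D/F with DMSO and at 53.2, 44 and 48.4 TPM with CCS1477. Its T/F values were 41.4, 72.4 and 58.9 TPM with DMSO and 136, 138 and 81.7 TPM with CCS1477. The D/F groups overlapped, and the T/F groups were apart by the margin between 72.4 and 81.7 TPM. In limma the log2 difference came to 0.08 for D/F (adjusted p = 0.772), 1.03 in T/F (adjusted p = 0.0308) and 0.55 over both genotypes (adjusted p = 0.0512, but between 0.02 and 0.0452 with a 5 TPM filter, a shared spread, quantile normalization or an eBayes trend). With a mouse left out the value over both genotypes lay between 0.32 (without T/F replicate 1, adjusted p = 0.178) and 0.69 (without D/F replicate 2, adjusted p = 0.0277), and the T/F call was lost when replicate 1 or replicate 2 was left out. The difference of 0.95 between the genotypes was not called in limma (unadjusted p = 0.0159, adjusted p = 1).

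The level of Lars2 is uncertain. A Lars2 transcript of 3894 bases shares 97 bases, at 94.8% identity, with AA474408, a gene on another chromosome whose TPM moved with it. AA474408 was at 17.9, 23.2 and 19.8 TPM in D/F with DMSO and at 20.6, 22.9 and 24.4 TPM with CCS1477. Among T/F mice the levels were 18.7, 34 and 28.6 TPM and then 75.2, 72.2 and 35.9 TPM. The libraries that were high for Lars2 were high for AA474408, and its own change on the log2 scale came to 0.16 for D/F and 1.11 for T/F. The part that shared reads have in the Lars2 value was not tested.

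**Figure D4:**
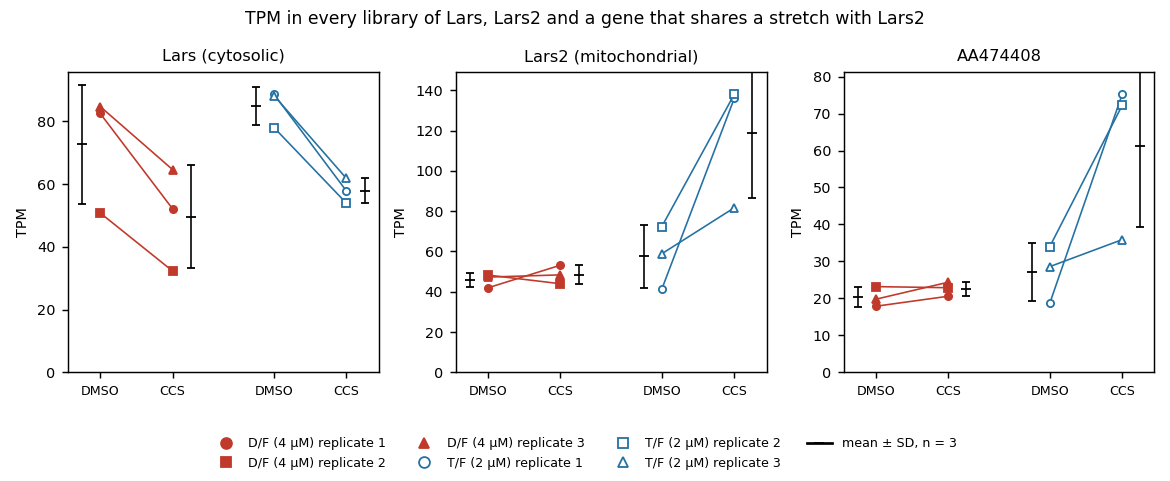
TPM in every library of Lars, Lars2 and AA474408, with a line for each mouse, filled points for D/F at 4 μM, open points for T/F at 2 μM and black bars for the mean ± SD of 3 mice. Lars is lower with CCS1477 in all 6 mice, while Lars2 and AA474408 are level in D/F and climb in T/F, most steeply in replicate 1.

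The other 9 mitochondrial genes were not called in any fit of the treatment with all mice, with or without the block. Vars2, Aars2 and Cars2 had log2 fold changes of -0.15, -0.05 and -0.01 over both genotypes, and Nars2, Fars2, Sars2, Pars2, Iars2 and Hars2 of 0.02, 0.03, 0.07, 0.09, 0.10 and 0.14. Pars2, for proline (ENSMUSG00000043572, chromosome 4 from 106651069 to 106655282) and the lowest mitochondrial member in DMSO, was at 8.38, 9.21 and 10.1 TPM in D/F with DMSO and at 9.07, 9.88 and 10.8 TPM with CCS1477. The T/F libraries were at 8.33, 8.27 and 9.95 TPM with DMSO and at 9.88, 8.54 and 9.87 TPM. Its groups overlapped in both genotypes, with log2 fold changes of 0.09 (standard error 0.15) and 0.08 (standard error 0.10). Transcripts of Iars2 share 2034 bases with Rab3gap2 and transcripts of Fars2 share 503 bases with Nrn1, in both cases on the opposite strand.

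Set beside their counterparts, the cytosolic genes were not uniformly the ones that fell more. In 8 of the 17 pairs the cytosolic gene had the lower difference in all 6 mice, in 4 the mitochondrial gene had, and 5 were mixed. The 8 were Farsa and Farsb against Fars2, Wars against Wars2, Lars against Lars2, Iars against Iars2, Eprs against Pars2, Hars against Hars2 and Nars against Nars2. The gap over both genotypes was -1.16 for Farsa and Fars2, -1.12 for Wars and Wars2, where the members were called in opposite directions, and -0.31 for Nars and Nars2. The 4 in the other direction were Yars and Yars2 (0.77), Eprs and Ears2 (0.66), Cars and Cars2 (0.50) and Tars and Tars2 (0.10). For tyrosine the mitochondrial gene fell by 1.01 on the log2 scale and the cytosolic gene by 0.23, the latter with an adjusted p of 0.139. Eprs and Fars2 each stand in more than 1 pair, and no test of the pairs was made.

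**Figure D5:**
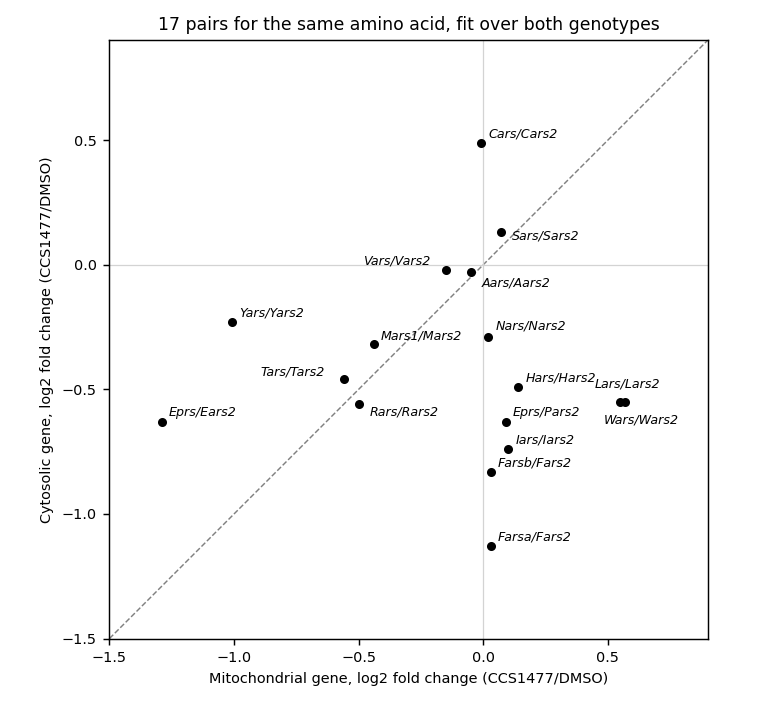
Log2 fold change over both genotypes of the cytosolic gene (vertical axis) against that of the mitochondrial gene (horizontal axis) for 17 pairs that charge the same amino acid, with the dashed line marking equal change. Points below the line, such as Farsa/Fars2 and Wars/Wars2, have the lower value in the cytosolic gene, and Yars/Yars2 and Eprs/Ears2 stand farthest above it.

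By enzyme class, the cytosolic class I and class II synthetases, which differ in the fold of their catalytic domain, had median log2 fold changes of -0.32 (9 genes) and -0.48 (10 genes) over both genotypes, with Eprs left out because its product joins a domain of each class. Of these, 5 class I and 5 class II genes fell and 1 class I gene (Cars) rose, against 19.6% of all genes lower and 25.8% higher. Among the mitochondrial members, 4 of the 9 class I genes (Ears2, Yars2, Mars2 and Rars2) and 1 of the 7 class II genes (Tars2) fell and Wars2, of class I, rose, with medians of -0.15 and 0.03. The classes were not tested against each other.

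No member was called for a different response between the genotypes (0 of 36 in limma at an adjusted p under 0.05). The same held for all genes (0 of 15583, 0%), so this does not show that the members responded alike. Of the members 1, Lars2, had an unadjusted p under 0.05 in limma. With the mouse as a block Mars2 had the smallest unadjusted p of the members in limma (0.00883, adjusted p = 0.228), with differences of -0.19 to -0.36 in D/F and -0.55 to -0.66 in T/F mice. Of the cytosolic genes 18 of 20 and of the mitochondrial genes 13 of 16 had fold changes of the same sign in both. The share of all genes with the same sign is not given here, but 24.2% were lower and 31.8% higher in every mouse. In DMSO no member was called between T/F and D/F cells (0 of 36). Hardly any gene was, with 0.0197% of all genes lower, 0.0131% higher and 0.0328% in all. Yars2, with a log2 difference of 0.28 toward T/F, was the 1 member with an unadjusted p under 0.05 in limma (0.0462, adjusted p = 0.801).

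The D/F mouse called replicate 2 stood apart in its cytosolic synthetases. With DMSO, 19 of the 20 cytosolic genes were below the mean of the other 2 D/F mice, with a median log2 difference of -0.61. Of the 16 mitochondrial genes 5 were, with a median of 0.12. Over all genes past the filter 4665 of 15114 were below that mean, with a median of 0.25. Aars, Gars, Nars and Cars were at 0.477, 0.481, 0.497 and 0.509 of that mean, Farsa was at 0.904 and Vars at 1.12. The 32 genes of the amino acid shortage response, the program of the kinase GCN2 and the transcription factor ATF4 that responds to uncharged tRNA, were also low in this mouse, with a median of -0.89 and 25 of 32 below 0. Its marker sums differed too, with myeloid progenitor and blast markers at 4297 TPM against 10639 and 8323 TPM, mature neutrophil markers at 2711 TPM against 9406 and 6280 TPM, and megakaryocyte markers at 212 TPM against 34.9 and 50.3 TPM. Monocyte and macrophage markers were at 446 TPM against 1248 and 629 TPM, the mast cell marker at 105 TPM against 24.7 and 26.1 TPM, erythroid markers at 32.1 TPM against 12.1 and 14.8 TPM, and B cell markers at 23.2 TPM against 10.8 and 11 TPM. The part of cell makeup in the low level of D/F replicate 2 was not tested.

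The response to CCS1477 was as large within that mouse, where the median difference of the cytosolic members was -0.50, as in D/F replicates 1 and 3 (-0.54 and -0.39). In the fit that leaves it out, 1 of the fits without each mouse in turn and singled out after its low level was seen, 7 cytosolic genes (Dars, Eprs, Farsa, Farsb, Hars, Iars and Rars) fell in D/F and Cars rose, against 10.8% of all genes called lower and 13.8% higher, and Wars2 was called besides Ears2 and Yars2. Without replicate 1 or without replicate 3, no gene of the table was called in D/F (0 of 15539 and 0 of 15545), and adjusted p-values from limma started at 0.0771 and 0.172. In these fits 1 and 2 cytosolic members, and 2 and 2 mitochondrial members, had an unadjusted p under 0.05, and the cytosolic medians were -0.48 and -0.53.

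Genes that work beside the synthetases were counted from lists chosen by function. The 3 scaffold proteins of the multisynthetase complex all fell in T/F and over both genotypes, and Eef1e1 and Aimp2 also fell in D/F, where 17.6%, 19.6% and 6.51% of all genes were called lower in T/F, over both genotypes and in D/F. Eef1e1 averaged 89.6 ± 22.3 TPM (SD, n = 3) with DMSO and 40.4 ± 10.3 TPM with CCS1477 in D/F, and 92.2 ± 4.68 and 40.1 ± 1.33 TPM in T/F, with a log2 fold change of -1.16 over both genotypes (adjusted p = 6.47e-05). Aimp2 and Aimp1 were at -0.90 and -0.32. Of the 5 partners of mitochondrial aminoacylation, which include the subunits of the glutamyl-tRNA amidotransferase, Gatc fell over both genotypes, by 0.28 on the log2 scale (adjusted p = 0.00338), and with the block 2 fell and 1 rose, against 25.9% and 34.5% of all genes.

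Of 45 tested genes for tRNA base modification, 30 fell and 5 rose over both genotypes, against 19.6% lower and 25.8% higher among all genes, with a median log2 fold change of -0.37 against 0.07 for all genes. With the mouse as a block 31 fell and 8 rose, against 25.9% and 34.5% of all genes. Trmt61a, the catalytic subunit of a tRNA adenosine methyltransferase, had the largest fall (-2.14), with means of 19.7 ± 5.3 TPM for DMSO and 3.48 ± 0.382 TPM for CCS1477 in D/F (SD, n = 3) and of 21.1 ± 4.14 and 4.13 ± 0.819 TPM in T/F, and Nsun2, a tRNA cytosine methyltransferase, was at -1.54. Trmt112, the partner of several methyltransferases, had the largest rise (0.83). Of 26 genes for tRNA end processing, splicing and export, 13 fell and 3 rose, or 16 and 5 with the block, with a median of -0.32. Prorp, the nuclease of mitochondrial RNase P, was at -1.27, Xpot, the tRNA exportin, at -0.98, and Pop5, a subunit of nuclear RNase P, at 0.39.

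Among the 32 genes of the amino acid shortage response 5 fell and 5 rose over both genotypes, against 45.3% of all genes called, and their median log2 fold change was -0.10. Once the mouse was a block 12 fell and 10 rose, against 25.9% of all genes lower and 34.5% higher. T/F alone gave 10 that fell and 4 that rose, against 17.6% and 25.8% of all genes, and D/F alone gave 0 calls in limma, against 11.6% of all genes. With the block 7 fell and 8 rose there, against 18% and 21.4% of all genes. Slc7a1, a transporter of cationic amino acids, was at -1.13 (adjusted p = 0.00039), and Sesn2, a leucine sensor of the mTORC1 pathway, was at 0.62 (adjusted p = 0.0134). Atf4 itself was at 0.00 (standard error 0.29). Asns, the asparagine synthetase, was at 0.27 (adjusted p = 0.514, or 0.0193 in the blocked fit).

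The remaining lists are short, and their calls over both genotypes stand beside 19.6% of all genes lower and 25.8% higher. Of 13 genes listed for mitochondrial translation, 4 fell and 3 rose, with Tufm, the mitochondrial elongation factor Tu, at -0.58 and Mtif3, an initiation factor, at 0.38. That list also holds Tfam and Polrmt, which serve mitochondrial transcription and were not called. Of 6 genes for editing and deacylation of aminoacyl-tRNA 3 fell and 1 rose, with the D-aminoacyl-tRNA deacylases Dtd1 at -0.54 and Dtd2 at 0.21. Of 6 genes of the selenocysteine route, in which seryl-tRNA is converted to selenocysteinyl-tRNA, Sephs2 fell (-0.33) and Pstk (0.54) and Eefsec (0.43) rose.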

How the data were processed

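The authors processed the reads with kallisto against mm10 (submitters' processing notes, no version given) within AltAnalyze (paper's methods) and deposited TPM per Ensembl gene without pooling. The labels name both ribosomal RNA depletion and an mRNA library kit. Libraries summed to between 914204 and 931697 TPM, and each listed gene reached 2 TPM in some library. Read numbers cannot be had from TPM, so depth is unknown and precision is the spread between 3 mice. TPM is also relative within a library, so that a change in total RNA would not be seen.

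Symbols and positions came from GENCODE vM21 (GRCm38), and shared stretches from a search (megablast) of its transcripts. limma 3.58.1 in R 4.3.3 was run on log2(TPM + 1) with a two-sided test, eBayes without a trend and Benjamini-Hochberg adjustment over the genes whose mean reached 1 TPM in some group compared. Within a genotype each member also had an exact two-sided permutation test, whose smallest p is 0.1. The code was tested on simulated data.

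By the labels, equal replicate numbers mark 1 mouse. Deviations from group means correlated at 0.354 to 0.669 within a mouse and at most 0.141 between mice, so the numbers pair the samples. The reported fits have no block unless stated, and where the block changed a member's call this is stated.

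Values in every library are given for the 5 lowest and 2 highest members of each class by fold change over both genotypes and for the highest and lowest by DMSO level. Members and lists were chosen with earlier results of these data known. Alternatives were a pseudocount of 0.1, filters at 5 TPM and none, the mouse block, a shared fit of 4 groups, rescaling by the median of ratios, quantile normalization, eBayes with a trend, a 2-fold limit, other class memberships and leaving out each mouse.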

Additional observations from a re-analysis of the deposited data

How the results depend on the processing

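With the mouse as a replicate block, the number of members called in D/F rose to 12 cytosolic and 5 mitochondrial, and it changed no call of a member other than those counted or named in the report. The fit that shares 1 spread over the 4 groups called 6 cytosolic and 5 mitochondrial members in D/F and 6 cytosolic members in T/F, and it called 31.9% of all genes in D/F (11.6% in the reported fit) and 24.3% in T/F (43.4%). Quantile normalization called 4 mitochondrial members in D/F. Calls over all genes also grew in that fit, from 1009 lower and 796 higher to 1290 lower and 1539 higher. It thereby moved the share of calls that were higher in D/F from 44.1% to 54.4%. Rescaling by the median of ratios moved that share from 59.4% to 49.6% in T/F and from 56.8% to 49.2% over both genotypes. A 2-fold limit left 1 mitochondrial member in D/F, 1 cytosolic and 3 mitochondrial in T/F, and 1 and 2 over both genotypes. Leaving out each mouse in turn gave 0 to 8 cytosolic and 0 to 3 mitochondrial calls in D/F, 8 to 11 and 3 to 7 in T/F, and 8 to 17 and 6 to 7 over both genotypes, where calls over all genes ran from 5660 of 15582 (without T/F replicate 1) to 8546 of 15431 (without D/F replicate 2).

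The cytosolic median stayed below 0 under every alternative run. It was -0.58, -0.51 and -0.56 (D/F, T/F and both genotypes) after rescaling by the median of ratios, -0.41 in D/F and over both genotypes after quantile normalization, and between -0.53 and -0.48, -0.45 and -0.41, and -0.48 and -0.46 with a mouse left out. The mitochondrial median, near 0, has no stable sign: it was -0.06, -0.11 and -0.07 after rescaling and -0.03 in D/F after quantile normalization, and between -0.02 and 0.00, -0.07 and -0.02, and -0.03 and 0.02 with a mouse left out. Rescaling also took the call of Cars over both genotypes (0.41, adjusted p = 0.152). No fold change that was called, in the reported fit or the alternative, changed sign, and 12 members changed sign in a comparison where they were called in neither, among them Lars2 in D/F. The cause of these changes was not tested. Low members such as Ears2 and Pars2 rest on an unknown number of reads.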
